A study of Mus musculus with 5 samples.

Results

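The transcripts of 10 genes that set the pace of G1 were followed in N18 mouse neuroblastoma cells made to express more Dyrk1a. They are the D-type cyclin genes Ccnd1, Ccnd2 and Ccnd3, the kinase genes Cdk4 and Cdk6, the CIP/KIP inhibitor genes Cdkn1a, Cdkn1b and Cdkn1c, and the INK4 inhibitor genes Cdkn2c and Cdkn2d. A feature belonged to the set if the platform annotation named 1 of these genes for it. This gave 17 probes of 10 genes, out of 44290 features and 19087 named genes on the array. Each of the 5 arrays compared N18 cells infected with the pAd-Dyrk1a adenovirus, which carries the Dyrk1a coding sequence, with N18 cells infected with the control adenovirus pAd-Track-CMV. Cultures on both sides of the comparison were therefore exposed to an adenovirus. Dyrk1a RNA was labelled with Cy5 on replicates 1 to 3 and with Cy3 on replicates 4 and 5. All cells come from 1 tumour line, and the labels give neither the virus dose nor the time after infection. Each value is the log2 of Dyrk1a signal over control vector signal, centred on the array's median. The log base was read from the size of the values.

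D-type cyclins bind CDK4 or CDK6, and the kinase complex phosphorylates the retinoblastoma protein, which frees E2F factors to switch on genes for S phase. INK4 proteins bind CDK4 and CDK6 and block them, while CIP/KIP proteins mainly inhibit CDK2 complexes and also bind cyclin D complexes. DYRK1A is a protein kinase reported to phosphorylate the cyclin D1 and p27 proteins in mammalian cells. These are events at the protein, which an RNA measurement does not see.

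Promoter sequence is shown for 3 of the genes whose values are described next. They were picked because Cdk4 varied most between arrays, Cdkn1b had probes that disagreed, and Cdkn2d had the smallest p of the set. RefSeq's promoter table (GRCm38.p6) held 10 entries for 7 of the 10 genes, each running from 250 bases before a transcript start to 50 after it. Capitals mark matches to a motif list searched on both strands. The list was the E-box (CACGTG), the CCAAT box (CCAAT), the E2F motif (TTTCCCGC, TTTGGCGC, TTTCGCGC or TTTGCCGC) and the cell-cycle homology region, CHR (TTTGAA or TTCGAA). None of the marked matches overlap in these sequences.
Cdk4, chr10:127063285-127063584, plus strand, GRCm38.p6: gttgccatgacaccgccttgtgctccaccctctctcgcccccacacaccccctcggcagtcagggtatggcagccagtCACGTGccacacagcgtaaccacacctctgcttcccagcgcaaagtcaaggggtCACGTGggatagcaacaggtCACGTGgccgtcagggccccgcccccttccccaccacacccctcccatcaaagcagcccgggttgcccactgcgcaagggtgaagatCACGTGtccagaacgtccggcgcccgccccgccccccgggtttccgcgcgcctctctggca
Cdkn1b, chr6:134920151-134920450, plus strand, GRCm38.p6: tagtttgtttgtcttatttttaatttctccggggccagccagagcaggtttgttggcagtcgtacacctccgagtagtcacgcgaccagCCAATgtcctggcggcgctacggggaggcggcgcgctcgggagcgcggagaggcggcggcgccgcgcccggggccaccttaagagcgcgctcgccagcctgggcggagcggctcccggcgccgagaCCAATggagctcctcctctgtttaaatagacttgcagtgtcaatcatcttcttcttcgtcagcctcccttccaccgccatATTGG
Cdkn2d, chr9:21291160-21291459, minus strand, GRCm38.p6: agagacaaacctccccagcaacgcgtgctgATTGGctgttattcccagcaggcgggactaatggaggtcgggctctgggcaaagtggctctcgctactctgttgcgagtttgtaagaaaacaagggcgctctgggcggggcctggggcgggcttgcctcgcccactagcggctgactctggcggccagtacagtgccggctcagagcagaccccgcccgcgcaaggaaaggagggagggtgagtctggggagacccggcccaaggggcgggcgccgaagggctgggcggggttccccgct

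The Cdk4 sequence holds 4 E-boxes, the motif bound by Myc-Max dimers among others. They begin 172, 118, 98 and 11 bases before the start, and 4 or more E-boxes are found in 8 of all 32851 promoter entries (0.0244%). At least 1 E-box is present in 7.15% of entries and in those of Cdk4 and Cdk6 and 1 of the 2 of Cdkn2c. Cdkn1b holds 3 CCAAT boxes, of which 1 lies on the opposite strand (ATTGG), and 3.37% of entries hold 3 or more. Cdkn2d holds 1 on the opposite strand, and 37.4% of entries have at least 1. The E2F motif, in 2.26% of entries, and the CHR motif, in 19.2%, were in 0 of the 10 entries of the set. These are matches of letters in a fixed window and describe no binding.

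The Dyrk1a probe of NM_007890, the only one of 3 measured in every array, read 2.46, 2.30, 1.93, 3.02 and 2.37 over replicates 1 to 5 as centred log2 ratios. It was high in every array, and the fitted change was 2.46 (limma SE 0.12, adjusted p = 0.0139), a 5.52-fold higher level. The other probes of the gene stayed near 0, with a mean of -0.058 over 4 arrays for that of AK047845 and 0.063 over 2 arrays for that of BC034550, and the mean of whichever probes were measured gave a fitted change of 1.16 (limma adjusted p = 0.0231). The call was lost without replicate 1 (limma adjusted p = 0.334). The call was also lost without replicate 4 or 5, fits that leave a single Cy3 array (fitted change 2.30 and 2.63). With all arrays it was the only one of 11191 tested genes to pass an adjusted p of 0.05, so that 0.00894% of genes were called higher and 0.0% lower. Without replicate 2, limma called 96 genes higher and 280 lower. At an unadjusted limma p under 0.05 there were 1301 genes, 11.6% of those tested. A value was present for 63.8% to 70.0% of features in an array, and the files do not say why the others are blank. Replicate 2 was the most scattered array: the central part of its values, between the quartiles, spanned 0.29, and 0.15 to 0.17 on the other arrays. Of the markers fixed for sympathetic neuroblasts, 8 of 11 on the array had a value in all 5 arrays, against 1 of 8 for glia, 4 of 9 for fibroblasts and smooth muscle, and 1 of 4 for immune cells. Over all genes on the array the share was 58.6%. Each marker on the array had a value in some array. Levels cannot be read from ratios.

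None of the tested members was called. In RNA from whole cultures, fewer cells with a transcript and less of it per cell cannot be told apart. Of the 10 genes, 7 had a probe measured in all 5 arrays and entered the fit, and 0 of these 7 passed in either direction, where the background was 0.00894% of genes. At an unadjusted limma p under 0.05 there was 1 member, Cdkn2d. The fitted log2 ratio was below 0 for 3 of 7 members and for 45.1% of all genes. The median absolute change was 0.050 among the members and 0.045 over all genes, so the set lay about as far from 0 as genes at large. Only Ccnd3 had the same sign in all 5 arrays, as 13.0% of genes did. The members' median was 0.028, against 0.0080 over all genes. It was -0.052 without replicate 2 and -0.030 without replicate 4, a fit that leaves a single Cy3 array.

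**Figure D1:**
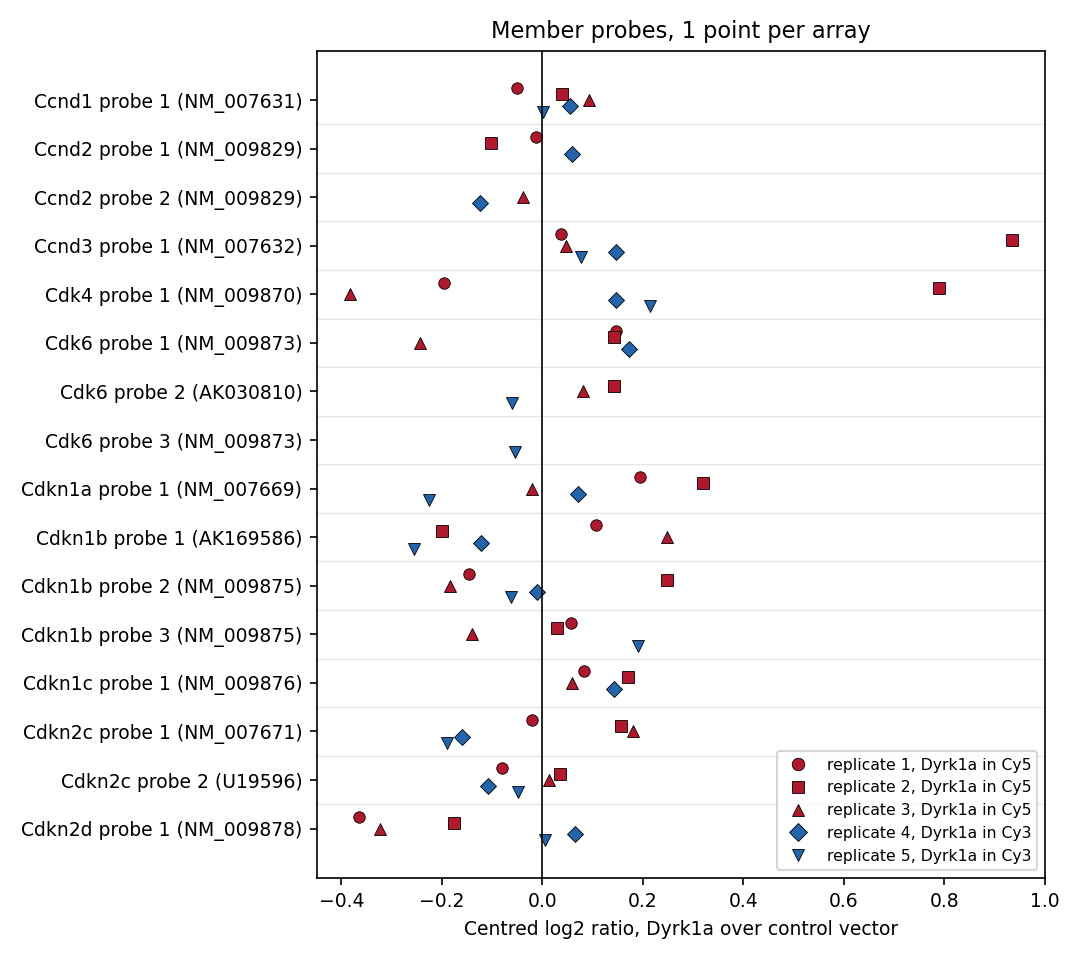
Centred log2 ratio of Dyrk1a over control vector (horizontal axis) for each member probe with a value (rows), 1 point per array, coloured by the dye that carried Dyrk1a RNA. Most points lie within 0.4 of 0, and the points at 0.94 for Ccnd3 and 0.79 for Cdk4 are both replicate 2.

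Ccnd1 encodes cyclin D1, the D-type cyclin most closely tied to growth factor signals. Its centred log2 ratios were -0.051, 0.040, 0.093, 0.056 and 0.002 in replicates 1 to 5. The values straddled 0 in a narrow band, with a mean of 0.028 ± 0.055 (SD, n = 5), and the SD was smaller than that of all but 9.3% of genes. The fitted change was 0.028 with a 95% interval of -0.065 to 0.12, which spans 0.96-fold to 1.09-fold (limma adjusted p = 0.849). This was among the narrowest intervals of the set. The dye term was also near 0, at -0.0014.

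Ccnd2 encodes cyclin D2, a D-type cyclin used by neural progenitors and also known as a Myc target. None of its 3 probes, all annotated to the same transcript, was measured in every array. The first read -0.013, -0.10 and 0.060 in replicates 1, 2 and 4, and the second read -0.039 and -0.12 in replicates 3 and 4. The last had no value in any array. In replicate 4, the one array that measured both probes, they lay on opposite sides of 0. A mean of whichever probes were measured gave a fitted change of -0.040 (95% interval -0.16 to 0.080). Replicate 5 was missing, so the dye term rests on a single Cy3 array.

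Ccnd3, the gene of cyclin D3, had the largest fitted change of the set, and 1 array made most of it. Its centred log2 ratios were 0.038, 0.94, 0.048, 0.15 and 0.077 in replicates 1 to 5. Replicate 2 stood far above the others, which lay together between 0.038 and 0.15. The fitted change was 0.23 (SE 0.14, 95% interval -0.12 to 0.57, limma adjusted p = 0.640). Without replicate 2 it was 0.078 (SE 0.030, 95% interval 0.0050 to 0.15, limma adjusted p = 0.229), a smaller value with a smaller error that again did not pass. In replicate 2 only 62 of the 11191 genes had a higher ratio than Ccnd3. The wide spread of that array was given above. With arrays scaled to the same spread Ccnd3 was at 0.18 (SE 0.085), and after quantile normalization at 0.21 (SE 0.11). With array weights it was at 0.091 (SE 0.050). The part of that spread in the Ccnd3 value was not tested.

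The genes most like Ccnd3 over the 5 arrays shared its high replicate 2. By the root mean square difference of centred log2 ratios, these were Map7d1 (0.045), Gaa (0.047) and H2-D1 (0.054). Their replicate 2 values were 1.01, 1.00 and 0.89, while their other values lay between -0.041 and 0.15. Likeness to Ccnd3 here is thus largely likeness in 1 array.

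Cdk4 encodes the catalytic partner of the D-type cyclins. Its centred log2 ratios were -0.20, 0.79, -0.38, 0.15 and 0.21 in replicates 1 to 5. Replicate 2 was again the highest value by far, replicates 1 and 3 lay below 0, and both Cy3 arrays lay above it. Its standard error was larger than that of 99.3% of genes. The fitted change was 0.13 (SE 0.17, 95% interval -0.30 to 0.55, limma adjusted p = 0.850). The interval leaves a range from 0.82-fold to 1.46-fold, so a moderate change of Cdk4 was not detectable under the main setting. Without replicate 2 the fitted value was -0.054 (SE 0.040, 95% interval -0.15 to 0.044, limma adjusted p = 0.496). With array weights it was -0.0031 (SE 0.058, 95% interval -0.14 to 0.13). Both intervals were narrower than that of the main setting.

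Cdk6 encodes the other kinase that D-type cyclins activate. Its most complete probe read 0.15, 0.14, -0.24 and 0.17 in replicates 1 to 4. Replicate 3 stood apart on the other side of 0. A second probe, annotated to another transcript record, read 0.14, 0.080 and -0.061 in replicates 2, 3 and 5, and so was above 0 in replicate 3. The last probe was measured only in replicate 5, at -0.055. The fitted change was 0.096 for the most complete probe (95% interval -0.14 to 0.33). That probe has a single Cy3 array, replicate 4, on which its dye term rests. For the mean of whichever probes were measured, the fitted change was 0.065 (95% interval -0.073 to 0.20, limma adjusted p = 0.791).

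**Figure D2:**
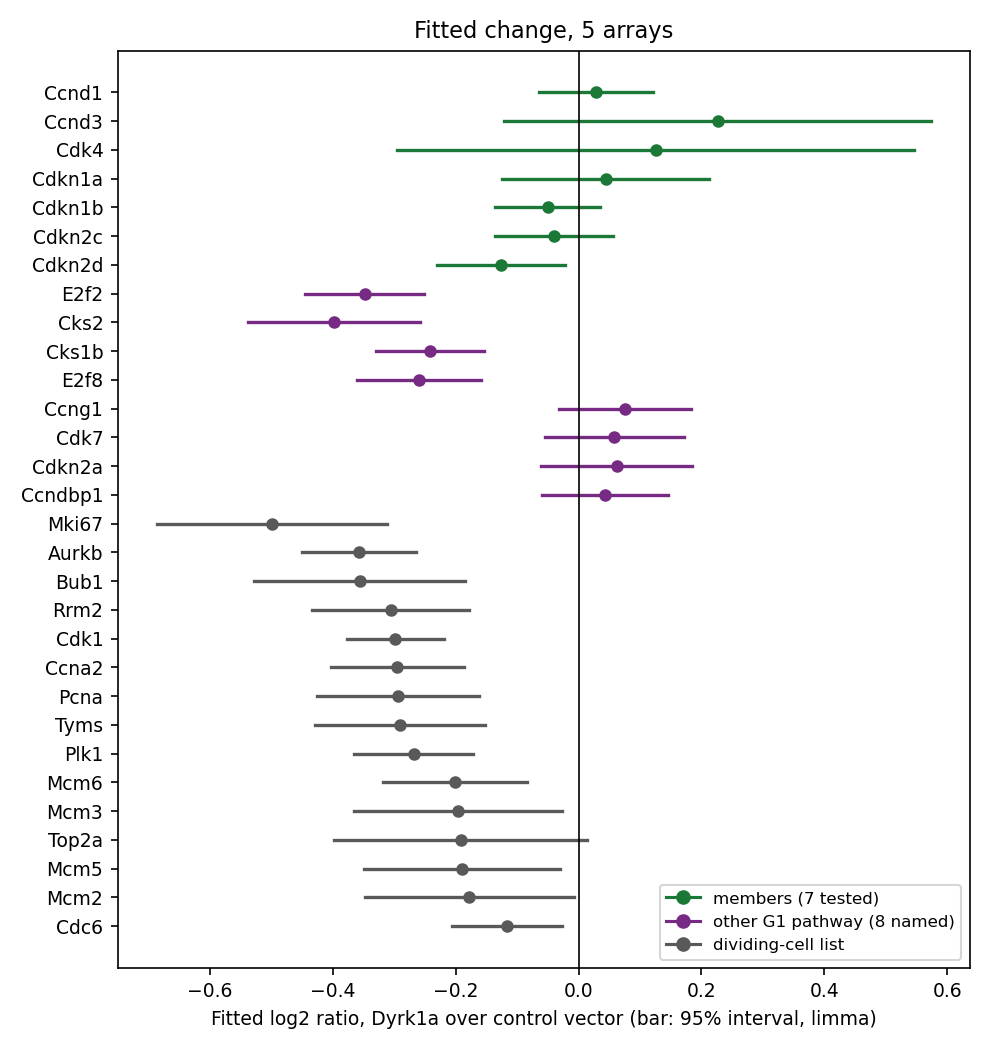
Fitted log2 ratio of Dyrk1a over control vector (points) with its 95% interval from limma (bars) for the 7 tested members, 8 other G1 genes and 15 genes of dividing cells. The member intervals other than that of Cdkn2d cross 0, and the intervals of Ccnd3 and Cdk4 are the widest among the members, while the fitted values of the 15 dividing-cell genes lie below 0.

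Cdkn1a encodes p21, the CIP/KIP inhibitor induced by p53. Its centred log2 ratios were 0.19, 0.32, -0.021, 0.072 and -0.23 in replicates 1 to 5. The arrays spread widely on both sides of 0, with a mean of 0.068 ± 0.21 (SD, n = 5). The fitted change was 0.044 (95% interval -0.12 to 0.21, limma adjusted p = 0.874), or 0.92-fold to 1.16-fold. It was -0.030 without replicate 4, a fit that leaves a single Cy3 array, and 0.0049 without replicate 2.

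Cdkn1b encodes p27, an inhibitor known to accumulate in cells that leave the cycle. Its 2 fully measured probes gave a gene mean of -0.020, 0.024, 0.033, -0.067 and -0.16 in replicates 1 to 5. The fitted change of that mean was -0.050 (SE 0.035, 95% interval -0.14 to 0.035, limma adjusted p = 0.682), which spans 0.91-fold to 1.02-fold. This small error came from averaging probes that disagreed. The probe of AK169586 read 0.11, -0.20, 0.25, -0.12 and -0.26, and a probe of NM_009875 read -0.15, 0.25, -0.18, -0.012 and -0.062. They were on opposite sides of 0 in replicates 1, 2 and 3, and in replicate 2 the first minus the second was -0.45. Fitted alone, the probes had changes of -0.067 (SE 0.072) and -0.031 (SE 0.072), each with a larger error than their mean. A further NM_009875 probe, missing from replicate 4, had values of 0.057, 0.030, -0.14 and 0.19 in replicates 1, 2, 3 and 5. Its fitted change was 0.089 (SE 0.063), with a dye term that rests on a single Cy3 array. The Cdkn1b probes thus differed in sign and none of them passed.

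Cdkn1c encodes p57, a CIP/KIP inhibitor expressed from the maternal allele. Its only probe read 0.083, 0.17, 0.058 and 0.14 in replicates 1 to 4 and was blank in replicate 5. All 4 values were above 0 and close together, with a mean of 0.11 ± 0.052 (SD, n = 4). It lay outside the fit of complete genes. When features measured in at least 4 arrays were tested, the fitted change was 0.13 with a 95% interval of -0.012 to 0.26 for the probe (limma adjusted p = 0.593). Only 1 array with Dyrk1a in Cy3 stands behind it, so its dye term rests on a single array.

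Cdkn2c encodes p18, an INK4 inhibitor. The mean of its 2 probes was -0.051, 0.096, 0.097, -0.13 and -0.12 in replicates 1 to 5. The 3 arrays with Dyrk1a in Cy5 lay above the 2 with it in Cy3, without overlap. The fitted change was -0.040 (95% interval -0.14 to 0.057, limma adjusted p = 0.781) and the dye term 0.17 (limma adjusted p = 0.337). Both probes had the same sign in each array, but the dye term was 0.28 for the probe of NM_007671 and 0.065 for that of U19596.

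Cdkn2d encodes p19 of the INK4 family, an inhibitor whose transcript is periodic in cycling cells. Its centred log2 ratios were -0.36, -0.18 and -0.32 on the Cy5 arrays, replicates 1 to 3, and 0.065 and 0.005 on the Cy3 arrays, replicates 4 and 5. The gene was lower in each Cy5 array and at or slightly above 0 in each Cy3 array, so the sign followed the dye. The fitted change, with the dye term in the model, was -0.13 (SE 0.042, 95% interval -0.23 to -0.023), and it did not pass (limma adjusted p = 0.348). Of all genes, 6.38% were lower at an unadjusted p under 0.05. The dye term was -0.32 (limma adjusted p = 0.134), larger in size than that of 93.1% of genes, and larger than the fitted Dyrk1a effect. A gene-specific dye effect and a Dyrk1a effect were separated here by 3 arrays against 2. Under array weights Cdkn2d was at -0.16 and passed (limma adjusted p = 0.00934), where 6.41% of genes passed as lower. Over the other alternatives its adjusted p ran from 0.0567, without replicate 2, to 0.999.

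**Figure D3:**
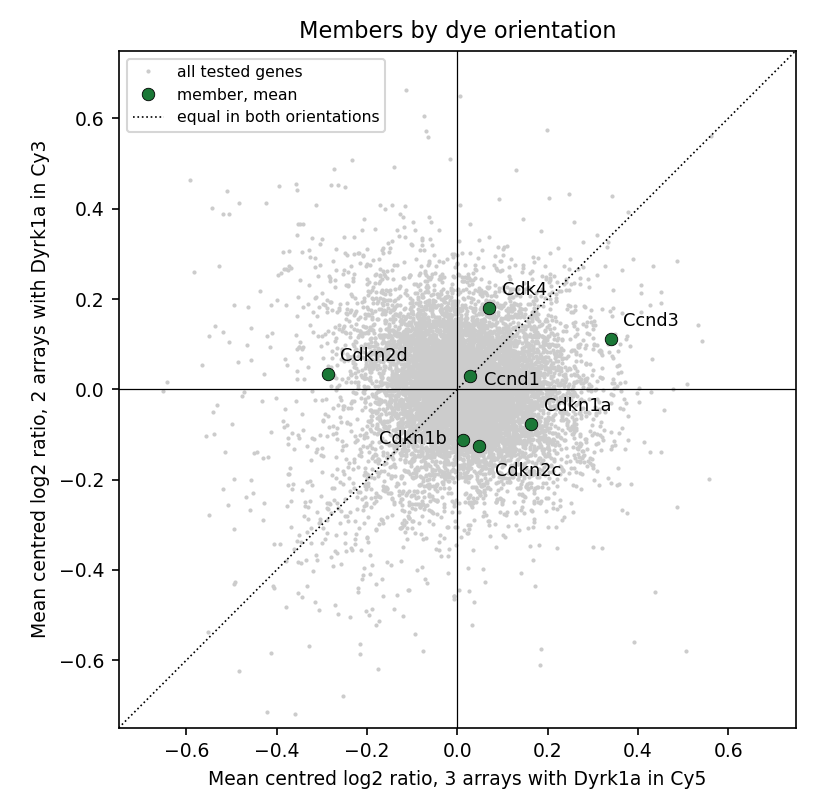
Mean centred log2 ratio over the 3 arrays with Dyrk1a in Cy5 (horizontal) and the 2 arrays with it in Cy3 (vertical) for the 7 tested members (green) and all tested genes (grey, with 9 genes beyond the axis limit of 0.75, Dyrk1a among them). Cdkn2d lies at -0.29 in Cy5 and 0.035 in Cy3, off the dotted line of equal values, and Ccnd1 lies on it.

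Dye orientation separated 3 of the 7 members without overlap. Cdkn1b and Cdkn2c were higher with Dyrk1a in Cy5, and Cdkn2d was lower. The same separation was seen in 37.5% of all genes, so the members' count is near that background. The dye term passed an adjusted p of 0.05 in limma for 0 members, with 1 member at an unadjusted p under 0.05, and for 1.33% of genes. These 3 inhibitors were also the 3 members with a fitted value below 0.

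**Figure D4:**
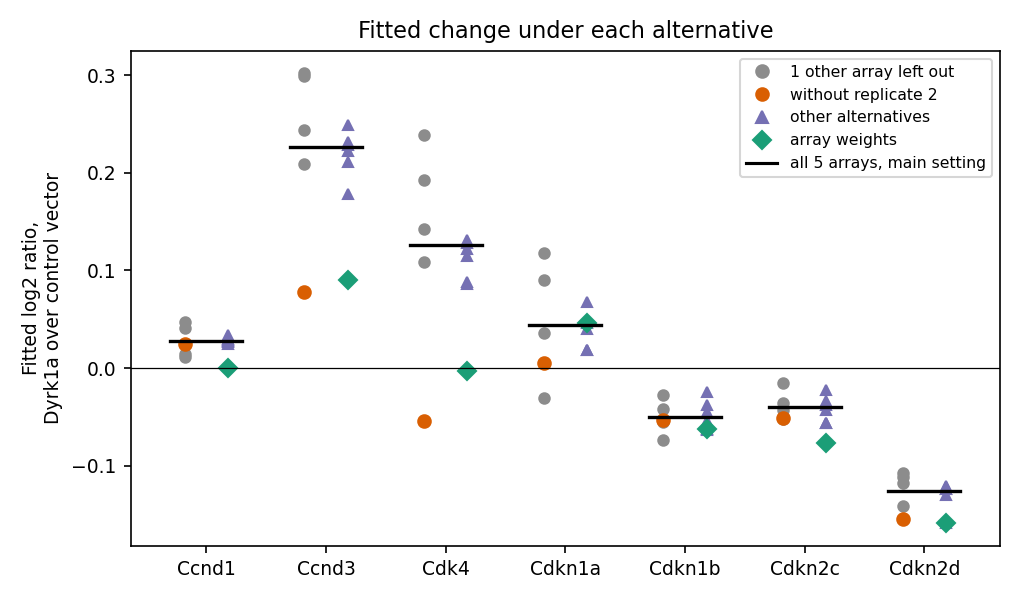
Fitted log2 ratio of Dyrk1a over control vector (vertical axis) for each tested member under the main setting (black line), with 1 array left out (circles) and under the other alternatives (triangles and diamonds). Without replicate 2, Ccnd3 is at 0.078 and Cdk4 at -0.054, while Cdkn1b, Cdkn2c and Cdkn2d stay below 0 under each setting drawn.

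The other genes around the G1 restriction point had a fitted median below 0, and none was called. From a list of 40 such genes, 39 were on the array and 37 were tested. None passed an adjusted p of 0.05 in limma, and 12 were lower and 0 higher at an unadjusted p under 0.05, where 6.38% of all genes were lower. Without replicate 2, 6 were called lower and 0 higher, where 2.5% of all genes were called lower. The median fitted change was -0.058, 25 of 37 were below 0 (67.6%, and 45.1% of all genes), and 10 were below 0 in all 5 arrays, as 6.32% of genes were. The genes with the smallest p were E2f2, an activator E2F, at -0.35 (SE 0.039), Cks2 at -0.40 (SE 0.057) and Cks1b at -0.24 (SE 0.036), which encode small CDK-binding subunits, and E2f8, an atypical repressor E2F, at -0.26 (SE 0.041). Their limma adjusted p ran from 0.0605 to 0.0951, and each was below 0 in 5 of 5 arrays. Dye orientation separated E2f2, Cks2 and Cks1b without overlap, with dye terms of 0.31, 0.44 and -0.27, while E2f8 overlapped. Cks2 was at only -0.0095 in replicate 1. The same separation was seen in 17 of the 37 tested genes of the list and in 37.5% of all genes. In the other direction were Ccng1, a p53 target, at 0.076, Cdk7, of the CDK-activating kinase, at 0.058, the INK4 and Arf gene Cdkn2a at 0.062, and Ccndbp1, which encodes a cyclin D-binding protein, at 0.043, with limma adjusted p from 0.606 to 0.776. Cdkn2b, the remaining INK4 gene, lacked a value in replicate 1 and was not tested. Mycn, also on the array, had no probe measured in all 5 arrays and was not tested either.

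Transcripts of dividing cells lay below 0 on the same arrays. All 15 tested genes of a list of proliferation genes were below 0, with fitted changes from -0.50 for Mki67 to -0.12 for Cdc6 and a median of -0.29, and 10 of them were below 0 in all 5 arrays. None passed an adjusted p of 0.05 in limma, and 14 were lower at an unadjusted p under 0.05, as 6.38% of all genes were. Without replicate 2, where 3.36% of all genes passed and 2.5% passed as lower, limma called 13 of these 15 genes lower and 0 of the 7 members in either direction. The count of dividing-cell genes called lower was 15 with array weights (6.41% of all genes), 9 after quantile normalization (1.7%), 8 with arrays scaled to the same spread (1.56%), 5 with features naming 1 gene only (0.715%), and 0 under the other 7 alternatives. Under the main setting, Cdk4 was the only tested member whose 95% interval, -0.30 to 0.55, held a value as low as the list's median. Its lower bound of -0.295 was close to that median of -0.291. The lowest bound among the other 6 was -0.23, for Cdkn2d. Both points changed with the setting. Without a dye term the lower bound of Cdkn2d was -0.34, and the list's median was -0.28. Without replicate 2 the lower bound of Cdk4 was -0.15, and the list's median was -0.27. The bound also lay above the median with arrays scaled (-0.21 against -0.28) and after quantile normalization (-0.19 against -0.28). The same held with array weights (-0.14 against -0.27) and with features naming 1 gene only (-0.27 against -0.29). Without replicate 4, a fit with a single Cy3 array, the intervals of Ccnd3 and Cdkn2d reached the list's median too. The difference between the lists was not tested.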

How the data were processed

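The values used were log2 ratios deposited by the authors, 1 table of 44290 features in 5 columns, which held 0 columns of other samples. Total RNA had been isolated with Trizol and labelled with an Agilent amplification kit, per the labels' protocols. Scanning, background correction and normalization are not given in the sources used here, while the 5 samples are described as individual ones in the series' design. The base of the log is not stated and was read as 2 from the size of the values. A natural log would multiply each value by 1.44 and leave every p-value and sign as it is. Direction was taken as Dyrk1a over control vector on each array, because the Dyrk1a probe of NM_007890 was above 0 on all 5, while 170 of 170 unnamed features beyond 0.8 on at least 4 arrays changed sign with the dye. No intensities were used, so no filter on dim probes was possible.

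A gene's value was the mean of its probes measured on all 5 arrays. Arrays were centred on their median over 14307 features, 11191 of them genes, and tested with limma 3.58.1 in R 4.3.3 with 1 coefficient for Dyrk1a and 1 for the dye in each gene (3 residual and 2.87 prior degrees of freedom, two-sided, Benjamini-Hochberg over all features). An adjusted p under 0.05 was called. Probe values given are centred like the genes'. The number of arrays limits the precision. The fit was tested on simulated data. Python 3.11.15, pandas 2.3.3 and matplotlib 3.10.9 made the tables and plots. The named genes are all 10 members, Dyrk1a, the 4 other G1 genes with the smallest p in each direction and the 3 genes most like the member with the largest fitted change. The dividing-cell list is given by counts and range. The members, lists and tests were chosen with earlier results of these data known.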

Additional observations from a re-analysis of the deposited data

Results flagged for a closer look

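Within 22 sets of 4 or 5 array values, 3 held a value far from the others by Dixon's ratio, which flags about 1 set in 20 by chance. The Ccnd3 probe was at 0.94 in replicate 2, with the other arrays between 0.038 and 0.15 (ratio 0.878). The most complete Cdk6 probe was at -0.244 in replicate 3, with the others between 0.14 and 0.17 (ratio 0.929). Ccndbp1, of the other G1 genes, was at -0.109 in replicate 2, with the others between 0.058 and 0.081 (ratio 0.879).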

How the results depend on the processing

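No member was called under the main setting or under the other alternatives run, except Cdkn2d with array weights, at -0.1588 (limma adjusted p = 0.00934). That was 1 of the 7 tested members, where 6.41% of all genes were called lower. Of 98 single-member values, 93 kept their direction and their side of the threshold. The sign turned with array weights for Ccnd1 (-0.00022) and Cdk4 (-0.0031). With 1 array left out it turned for Cdk4 (-0.054 without replicate 2, up to 0.24 without replicate 3). It also turned for Cdkn1a (-0.030 without replicate 4, up to 0.12 without replicate 5), in fits that leave a single Cy3 array. The members' median of 0.028 ran from -0.052 to 0.041 with 1 array left out, lowest without replicate 2. With each probe fitted alone, the median over the 9 member probes was -0.031. That median counts Cdkn1b and Cdkn2c by 2 probes each, so it is not a median over the same genes. The cause of the shifts in sign, and of those with 1 array left out, was not tested.

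Over all genes, the calls were 622 higher and 717 lower with array weights, 43 and 175 with arrays scaled to the same spread, 47 and 190 after quantile normalization, and 8 and 80 when only features naming 1 gene were tested, against 1 and 0. Without 1 array they ran from 0 to 96 higher and from 0 to 280 lower, the most without replicate 2. Of the 37 other G1 genes tested, 13 were called lower and 1 higher with array weights, where 6.41% of all genes were called lower. After scaling 6 were called lower (1.56% of all genes), and after quantile normalization 6 (1.7%). Among features naming 1 gene, 3 were called lower (0.715%). Without replicate 2 the count was 6 (2.5%), and without replicate 1 or 3 it was 0. The Dyrk1a change ran from 2.30 to 2.63 without 1 array, and the call was lost without replicate 1 (limma adjusted p = 0.334). The call was also lost without replicate 4 or 5, fits that leave a single Cy3 array. The Dyrk1a change was 1.16 with the mean of whichever probes were measured, and a Dyrk1a probe of AK047845, measured on 4 arrays, was at -0.043. Testing probes on at least 4 arrays was chosen after seeing the data.

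Each array holds both samples of its pair, so the fit to log2 ratios already uses that pairing. No separate paired analysis was run. Background correction and a filter on dim probes could not be run without intensities.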
